A study of Mus musculus with 12 samples.

Results

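In each line of this series the library titled replicate 3 was set against the library titled replicate 1. The members are 8 of the 12 libraries, 1 of each number from each of 4 mouse embryonic stem cell lines, which gives 4 pairs matched by line. They were chosen by their titles alone, and all genes of the count table were used. The study sequenced RNA from cells with and without an altered Tin2, the shelterin subunit encoded by Tinf2. WT-1 and WT-2 are wild type, and the lines titled Mut-1 and Mut-2 carry Tin2 S341X. Each genotype therefore has 2 lines, and no line received a treatment. All 4 were derived from blastocysts of C57BL/6 mice and kept on feeders of mouse embryonic fibroblasts with LIF and serum, so fibroblast RNA can be present in each library. The 3 libraries per line are technical replicates in the words of the design, and the sources used here do not give what a replicate number stands for (a dish, a harvest, an extraction or a library preparation). These possible sources cannot be told apart, and the p-values below measure only how evenly the difference between the numbers was repeated over 4 lines.

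Cultured stem cells adjust their transcripts within minutes to hours of handling. Fresh serum or growth factors activate the MAP kinase ERK and serum response factor, which switch on immediate early genes such as Fos, followed by phosphatases of the Dusp family that turn the signal off again. Over longer times, nutrients, oxygen and cell density act through other regulators: SREBP for sterol synthesis, HIF for glycolysis, and ATF4 for amino acid supply. The gene lists below were fixed from such knowledge, with earlier results of these data known.

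Where 4 values follow each other, they are for WT-1, then WT-2, then Mut-1, then Mut-2. The 8 libraries held between 15127354 and 17891894 counts. In the paired fit the median over all 15789 tested genes was -0.001 on the log2 scale. No background was subtracted from medians or fold changes, and a median over all genes is not given for single lines. The targeted gene, Tinf2 (chromosome 14, 55674689 to 55681820, minus strand, GRCm38), matched the line labels in both numbers. In TMM-normalized CPM, which scale each library's counts to a common total, replicate 1 had 68.9, 63.8, 29.8 and 30.1. Replicate 3 had 57.5, 60.4, 20.1 and 19.6. Both numbers separated the genotypes, and Tinf2 was lower in replicate 3 in 4 of 4 lines without passing the test (log2 fold change -0.36, SE 0.13, edgeR adjusted p = 0.268). Of the stem cell markers Pou5f1, Sox2, Nanog, Zfp42 and Esrrb, the summed CPM ranged from 2050 to 2710 in replicate 1 and from 2410 to 2740 in replicate 3, so both numbers carry the labelled cell type. Endoderm markers (4 genes) summed to 8.16 to 23.6 CPM and 9.24 to 20.8 CPM. The 3 neural markers summed to 26.9 to 53.5 and 40.9 to 76.3 CPM, most of it Tubb3. Blood markers (4 genes) summed to 27.3 to 53 and 36.2 to 43.2 CPM, most of it Cd68, and Ptprc was at 0.345 CPM or less in every library. The 3 endothelial markers summed to 132 to 179 CPM in replicate 1 and 88 to 220 in replicate 3, and the 3 muscle markers to 19.8 to 27.6 and 11.9 to 25.7 CPM. On the longer list of muscle and myofibroblast genes all 9 tested were lower in replicate 3 (median -0.3), 2 of them at an unadjusted p under 0.05, and 0 passed.

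In replicate 3, 12 genes rose and 0 passed as lower. With the line as the pair, edgeR's quasi-likelihood test called 12 higher genes (0.076% of those tested) and 0 lower genes (0%) at a Benjamini-Hochberg adjusted p under 0.05. At an unadjusted p under 0.05 there were 1185 higher genes (7.51%) and 1188 lower genes (7.52%), so differences of both signs were about equally common below the threshold. In all 4 lines the difference pointed up for 1874 genes (11.9%) and down for 1963 (12.4%). Every replicate 3 library lay above every replicate 1 library, without overlap, for 690 tested genes (4.37%). For 755 tested genes (4.78%) every replicate 3 library lay below. When the replicate 2 libraries were added to the fit to estimate the spread from all 12 libraries, the same contrast called 160 higher (0.988%) and 94 lower genes (0.581%), all 12 genes above among the former. The paired call rests on each of 2 lines: without WT-2 or without Mut-1 no gene was called, while 98 higher and 49 lower genes were called without WT-1 and 12 higher and 0 lower without Mut-2.

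**Figure D1:**
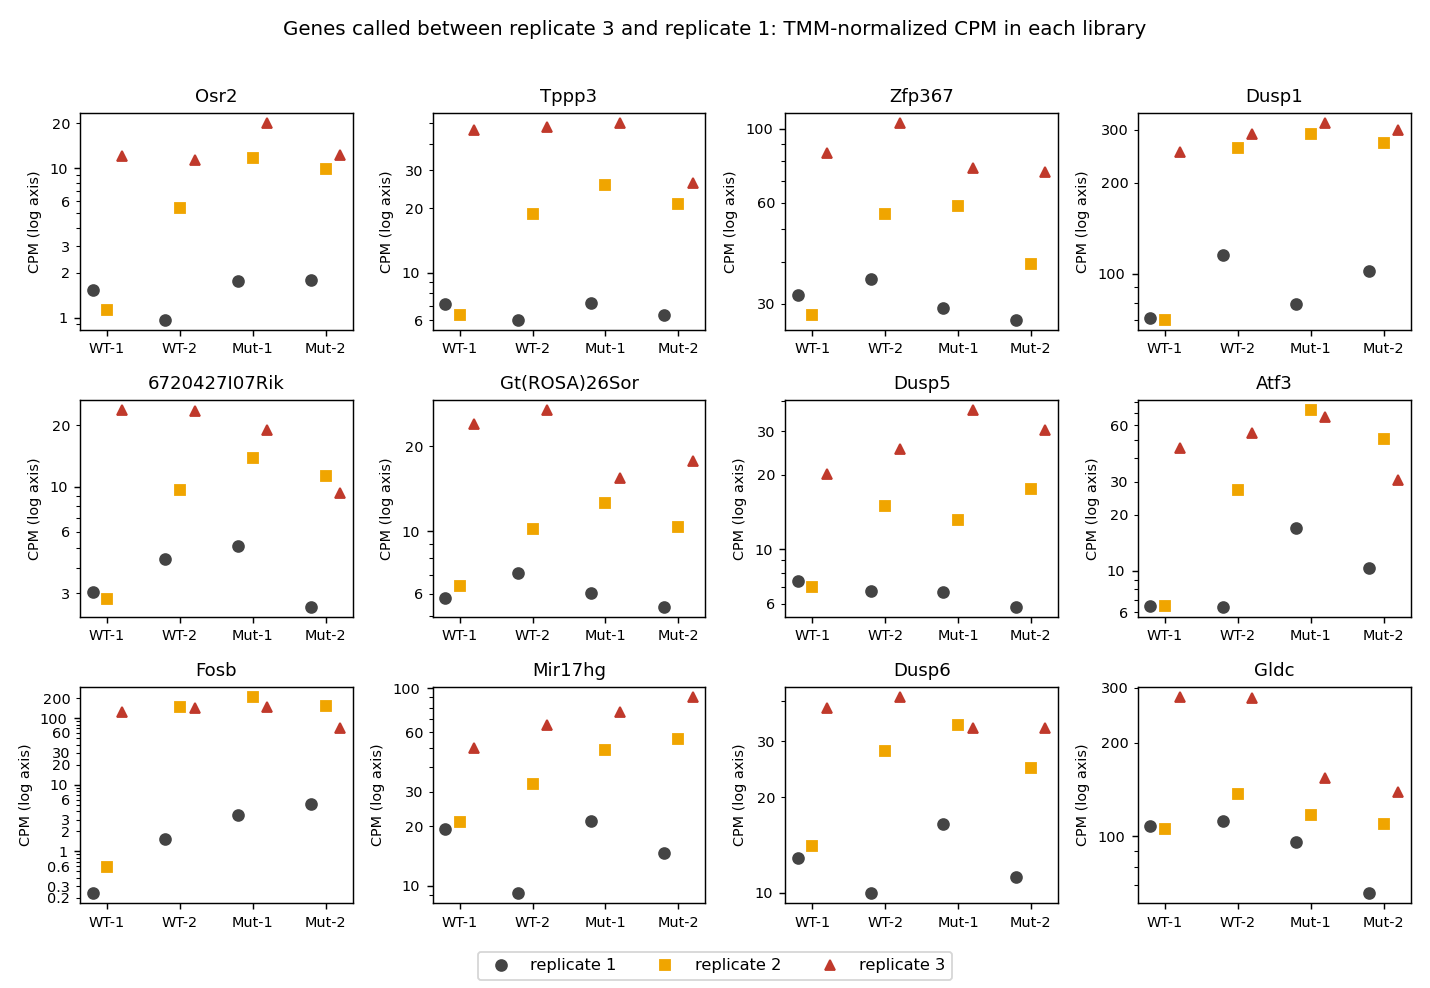
Each panel plots 1 of the 12 genes that rose, with the line on the x axis, TMM-normalized CPM on a log y axis, and 1 point per library (circles replicate 1, squares replicate 2, triangles replicate 3). Triangles lie above the circles of every line, and in WT-1 the square sits beside the circle, as for Dusp1 at 70.2 and 71.3 CPM.

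The largest rise was in Fosb, a FOS-family subunit of the AP-1 transcription factor (chromosome 7, 19302696 to 19310051, minus strand). Replicate 1 held 0.233, 1.51, 3.57 and 5.21 CPM, and replicate 3 held 122, 141, 147 and 70.3 CPM. The 2 numbers did not overlap, which in this direction held for 4.37% of all tested genes. The log2 fold change was 5.68 (SE 0.61, edgeR adjusted p = 0.0221), a 51.2-fold difference. Fos itself, its closest relative (chromosome 12, 85473890 to 85477273, plus strand), had 5.95, 28.7, 23.7 and 42.9 CPM in replicate 1 and 318, 300, 442 and 180 CPM in replicate 3. It was higher by as much as 5.63 in WT-1 and as little as 2.06 in Mut-2 on the log2 scale, and at a fold change of 3.82 (SE 0.52) it stayed just above the threshold (edgeR adjusted p = 0.0543; 0.0422 with 12 libraries). The replicate 2 libraries were not all on 1 side: WT-1 had 0.591 CPM of Fosb and 5.73 of Fos, close to its replicate 1, while WT-2, Mut-1 and Mut-2 had 145, 210 and 153 CPM of Fosb and 286, 395 and 328 of Fos.

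The immediate early genes Dusp1 and Atf3 also rose. Dusp1, a phosphatase that inactivates MAP kinases (chromosome 17, 26505590 to 26562128, minus strand), went from 71.3, 115, 79.5 and 102 CPM in replicate 1 to 252, 289, 315 and 300 CPM in replicate 3. The log2 fold change was 1.69 (SE 0.14), and single lines ran from 1.33 to 1.98 (edgeR adjusted p = 0.00637). Its annotated span overlaps Ergic1 on the opposite strand, which had a log2 fold change of -0.05. Atf3, a stress-induced transcription factor (chromosome 1, 191170296 to 191218039, minus strand), had 6.47, 6.44, 16.9 and 10.4 CPM in replicate 1 and 45.5, 54.4, 66.7 and 30.8 CPM in replicate 3, a log2 fold change of 2.36 (SE 0.25, edgeR adjusted p = 0.0220). For both genes every replicate 3 value lay above every replicate 1 value, as for 4.37% of all tested genes.

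Of the 19 immediate early genes tested, 15 were higher and 4 lower in replicate 3, and 3 passed the test (Fosb, Atf3 and Dusp1). Their median was 0.72, and by line it was 0.82, 0.54, 0.82 and 0.91. Without WT-2 the median was 0.99. In the same list the median of replicate 2 minus replicate 1, a comparison that shares the replicate 1 libraries, was 0.04, 0.90, 0.60 and 0.95. The fit with 12 libraries called 7 members higher, adding Fos, Egr2, Srf and Nr4a1, and 1 lower. Egr2, a zinc-finger factor, was near the detection limit in replicate 1 at 0.0583 to 0.422 CPM and had 1.17 to 6.69 CPM in replicate 3. Srf, the serum response factor that binds the promoters of many of these genes, had 42.3 to 57.6 CPM in replicate 1 and 94.8 to 120 in replicate 3 (log2 fold change 1.17, SE 0.15, edgeR adjusted p = 0.0543; 0.0142 with 12 libraries). The FOS partners Jun and Junb had log2 fold changes of 1.17 (SE 0.24) and 0.85 (SE 0.17), both with an edgeR adjusted p of 0.155. Not all members moved this way. Ier3, an early gene linked to survival signalling, was lower in 4 of 4 lines by -0.71 to -1.73 (log2 fold change -1.12, edgeR adjusted p = 0.0746; 0.0380 with 12 libraries). Egr1 was uneven, with a log2 difference of 2.75 in WT-1, 0.90 in Mut-1 and -0.36 in both WT-2 and Mut-2.

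**Figure D2:**
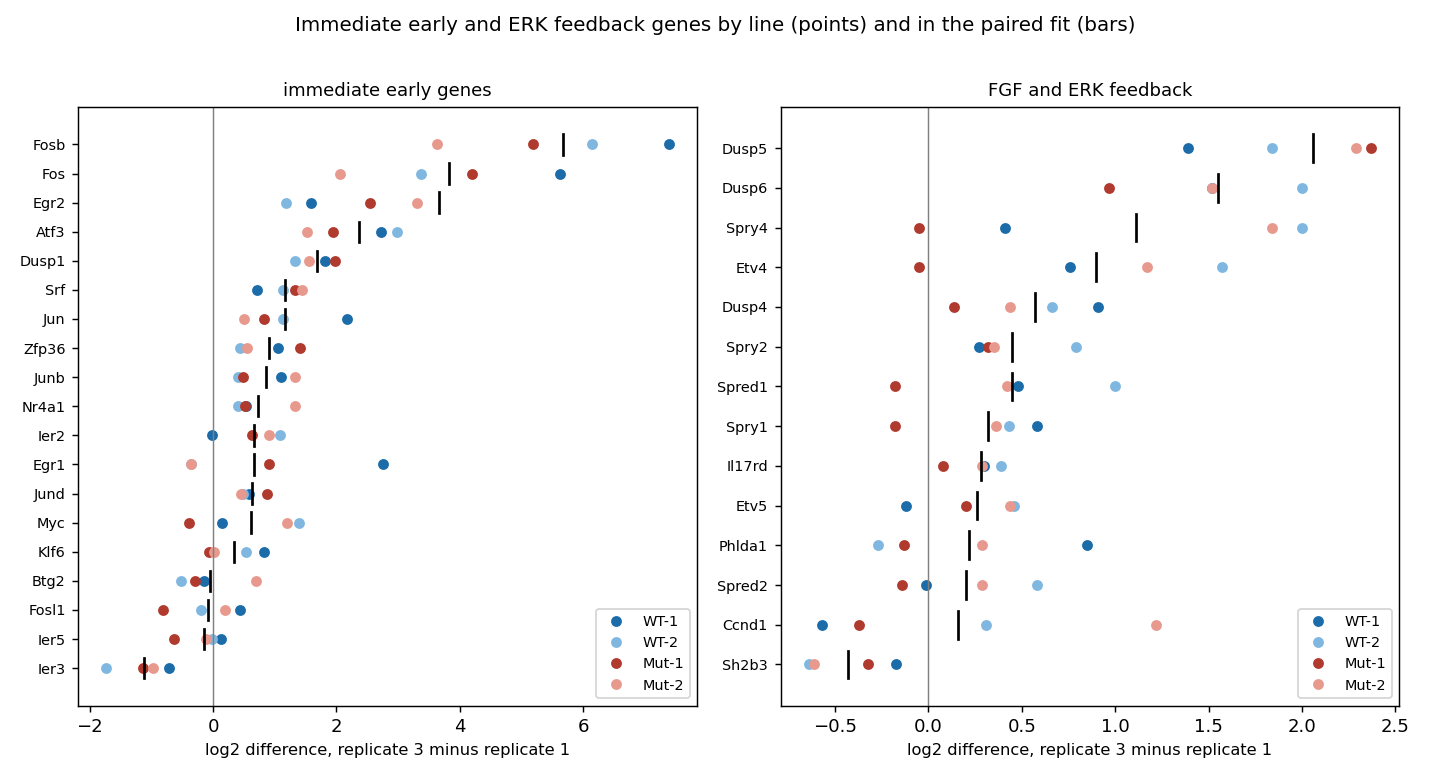
Rows are the tested immediate early genes (left) and genes of FGF and ERK feedback (right), and the x axis gives the log2 difference of replicate 3 minus replicate 1. Points are the 4 lines and black bars the paired fit, from 5.68 for Fosb to -1.12 for Ier3 on the left and from 2.06 for Dusp5 to -0.43 for Sh2b3 on the right.

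The negative feedback of FGF and ERK signalling gave the same kind of picture. Dusp5, a nuclear ERK phosphatase (chromosome 19, 53529109 to 53542431, plus strand), had 7.41, 6.75, 6.71 and 5.84 CPM in replicate 1 and 20.2, 25.4, 36.7 and 30.5 CPM in replicate 3 (log2 fold change 2.06, SE 0.21, edgeR adjusted p = 0.0204). Dusp6, its cytoplasmic relative (chromosome 10, 99263231 to 99267489, plus strand), had 12.9, 9.94, 16.5 and 11.2 CPM against 38, 41.4, 32.9 and 33 CPM (log2 fold change 1.55, SE 0.18, edgeR adjusted p = 0.0382). These were the 2 called among 14 tested members, 13 of them higher, with a median of 0.39. Dusp6 lost its call without Mut-2. By line the median was 0.44, 0.62, -0.05 and 0.43. Spry4, an inhibitor of receptor tyrosine kinase signalling, and Etv4, an ETS factor downstream of FGF, showed where Mut-1 stood apart. Spry4 differed by 0.41, 2.0, -0.05 and 1.84 and Etv4 by 0.76, 1.57, -0.05 and 1.17 on the log2 scale, with edgeR adjusted p-values of 0.243 and 0.193. Sh2b3, an adaptor that dampens cytokine signalling, was the lower member (-0.43, edgeR adjusted p = 0.260).

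A few members of these lists hold, in their promoter windows, the elements that serum and cyclic AMP signals act through, and 3 of these windows are shown as examples. The 3 genes were higher in replicate 3 of every line, as was Egr2, whose window is not shown. The windows run from 250 bases before to 50 after the RefSeq start (GRCm38.p6), read 5′ to 3′ on the gene's strand. Capitals mark a CArG box, the core that serum response factor binds, in Dusp5 (chr19:53528895-53529194, plus strand) at positions -82 and -72 from the start and in Srf (chr17:46556113-46556412, minus strand) at -82 and -62. In Dusp1 (chr17:26508423-26508722, minus strand) they mark a cyclic AMP response element, TGACGTCA, at -143.
Dusp5: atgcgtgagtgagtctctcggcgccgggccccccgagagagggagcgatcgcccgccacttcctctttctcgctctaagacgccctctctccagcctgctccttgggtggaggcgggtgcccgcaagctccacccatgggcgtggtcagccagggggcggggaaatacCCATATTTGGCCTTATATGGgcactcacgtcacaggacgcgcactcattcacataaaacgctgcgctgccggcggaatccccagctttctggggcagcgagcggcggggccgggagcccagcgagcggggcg
Srf: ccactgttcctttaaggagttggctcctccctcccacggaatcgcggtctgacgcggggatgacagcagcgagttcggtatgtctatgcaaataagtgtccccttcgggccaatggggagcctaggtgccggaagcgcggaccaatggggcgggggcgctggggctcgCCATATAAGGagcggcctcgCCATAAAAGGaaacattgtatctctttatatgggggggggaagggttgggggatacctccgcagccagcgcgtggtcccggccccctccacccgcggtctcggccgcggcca
Dusp1: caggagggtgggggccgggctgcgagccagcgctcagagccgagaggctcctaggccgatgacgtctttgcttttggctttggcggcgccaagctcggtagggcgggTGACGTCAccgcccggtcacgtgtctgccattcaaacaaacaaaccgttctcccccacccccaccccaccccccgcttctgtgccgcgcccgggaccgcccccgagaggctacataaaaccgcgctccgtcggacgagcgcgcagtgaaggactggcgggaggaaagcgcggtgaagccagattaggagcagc
Searched on both strands, a CArG box was present in the windows of 3 of the 15 immediate early genes with a window (Egr2, Zfp36 and Srf), in 1 of 9 feedback genes (Dusp5) and in 1.57% of 11175 tested genes. TGACGTCA was present in 2 of 15 (Dusp1 and Btg2), in 0 of 9 feedback genes and in 3.52% of tested genes. The shares over all 32851 windows were 1.63% and 1.79%. A match describes these letters and is not evidence of binding, and Btg2 did not move with Dusp1 (log2 fold change -0.05, edgeR adjusted p = 0.917).

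Among the called genes, 3 are noncoding transcripts. Mir17hg, the host transcript of the miR-17-92 cluster (chromosome 14, 115042879 to 115046727, plus strand), had 19.4, 9.15, 21.2 and 14.6 CPM in replicate 1 and 49.9, 65.1, 75.8 and 90.8 CPM in replicate 3 (log2 fold change 2.18, SE 0.25, edgeR adjusted p = 0.0360). It lost its call without Mut-2 and in the fit that takes feeder share as a covariate. 6720427I07Rik, a transcript spanning a let-7 cluster (chromosome 13, 48532905 to 48546500, minus strand), had 3.03, 4.40, 5.14 and 2.58 CPM against 23.8, 23.4, 19 and 9.31 CPM (log2 fold change 2.30, SE 0.23, edgeR adjusted p = 0.0203), and it is named here although the rule for named genes leaves out such predicted genes. Gt(ROSA)26Sor, the noncoding transcript of the Rosa26 locus (chromosome 6, 113067428 to 113077333, minus strand), had 5.77, 7.11, 6.05 and 5.39 CPM against 23.9, 26.9, 15.4 and 17.7 CPM (log2 fold change 1.78, SE 0.18, edgeR adjusted p = 0.0203). It overlaps Thumpd3 on the opposite strand, whose own log2 fold change was -0.03. As for 4.37% of all tested genes, the lowest replicate 3 library lay above the highest replicate 1 library for all 3 transcripts.

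The first 2 of these are precursors of small regulatory RNAs, whose mature forms were not measured in these libraries. Their mature sequences (RefSeq, GRCm38.p6) are shown with the seed, bases 2 to 8, in capitals, because miRNAs that share a seed recognize the same target sites. Mir17hg contains 6 miRNA genes with 11 mature forms, and 6720427I07Rik contains 3 genes with 6, among them the following.
miR-17-5p: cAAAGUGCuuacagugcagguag
miR-20a-5p: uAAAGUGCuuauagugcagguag
miR-18a-5p: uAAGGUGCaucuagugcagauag
miR-19a-3p: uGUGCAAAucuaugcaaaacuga
miR-19b-3p: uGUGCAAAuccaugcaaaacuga
miR-92a-3p: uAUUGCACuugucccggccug
let-7a-5p: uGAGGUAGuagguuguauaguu
let-7d-5p: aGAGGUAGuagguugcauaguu
let-7f-5p: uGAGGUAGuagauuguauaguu
In the first cluster miR-17-5p and miR-20a-5p share a seed, as do miR-19a-3p and miR-19b-3p, and the 3 let-7 forms share 1 seed. The miR-17-92 cluster is known for promoting proliferation and let-7 for promoting differentiation, so the precursors that rose together belong to families with different known roles. Lin28a, the RNA-binding protein that blocks let-7 maturation, was higher in 4 of 4 lines as well, by 0.33 to 1.04 (log2 fold change 0.80, SE 0.15, edgeR adjusted p = 0.149; 0.0335 with 12 libraries).

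The remaining called genes do not belong to those lists. Osr2, a zinc-finger factor of mesenchymal development (chromosome 15, 35296098 to 35303305, plus strand), had 1.52, 0.964, 1.75 and 1.78 CPM in replicate 1 and 12.1, 11.3, 20 and 12.3 CPM in replicate 3 (log2 fold change 3.21, SE 0.23, edgeR adjusted p = 0.00439). Tppp3, a tubulin-binding protein (chromosome 8, 105467493 to 105471526, minus strand), had 7.17, 6.02, 7.20 and 6.36 CPM against 46.4, 48.0, 49.8 and 26.3 CPM (log2 fold change 2.65, SE 0.18, edgeR adjusted p = 0.00439). Zfp367, a zinc-finger protein (chromosome 13, 64133018 to 64153202, minus strand), was the most even of the called genes: its log2 difference was 1.40, 1.54, 1.38 and 1.46 in the 4 lines, from 26.8 to 35.5 CPM in replicate 1 to 74.5 to 104 CPM in replicate 3 (log2 fold change 1.48, SE 0.11, edgeR adjusted p = 0.00439). Gldc, the decarboxylase of the mitochondrial glycine cleavage system (chromosome 19, 30098447 to 30175429, minus strand), had 108, 112, 95.7 and 65.6 CPM against 281, 279, 154 and 139 CPM (log2 fold change 1.13, SE 0.14, edgeR adjusted p = 0.0466). None of the 4 overlapped between the numbers, as for 4.37% of all tested genes in this direction. Gldc lost its call without Mut-2 and when the line was left out of the model. The percentage of counts on 35 feeder fibroblast markers is given below for each library. It was higher in replicate 3 of WT-1 and lower in the other 3 lines. In the paired fit with this percentage as a covariate Osr2 kept its call, and the source of its RNA was not tested.

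No gene passed in the other direction, so the 12 lower genes with the largest fold changes among those of unadjusted p under 0.05 and the same sign in 4 lines are described by their values. Ppp1r3b, which targets protein phosphatase 1 to glycogen (chromosome 8, 35375739 to 35388139, plus strand), came nearest: 14.3, 39.4, 17.9 and 21.5 CPM in replicate 1 and 6.99, 8.77, 6.88 and 5.45 in replicate 3 (log2 fold change -1.63, SE 0.22, edgeR adjusted p = 0.0543; 0.0339 with 12 libraries). Its relative Ppp1r3c, with the same role, had 2.86, 15.2, 4.66 and 5.96 CPM against 1.62, 1.19, 1.86 and 0.414 (log2 fold change -2.28, SE 0.53, edgeR adjusted p = 0.173). Both glycogen-targeting subunits were thus lower without overlap of the numbers, as were 4.78% of all tested genes. Cacna1h, a T-type calcium channel subunit, had 15.2, 35.5, 17.2 and 26.4 CPM against 7.38, 5.01, 10.7 and 2.48 (log2 fold change -1.92, edgeR adjusted p = 0.173; 0.0421 with 12 libraries). The others were Nos2, the inducible nitric oxide synthase (-2.20), Aoc3, an amine oxidase (-1.76), the MHC class I gene H2-K2 (-1.63), Pgf, placental growth factor (-1.62), the homeobox genes Dlx3 and Phox2a (-1.58 each), Nags, which makes the activator of the urea cycle (-1.56), Bhmt2, a methyltransferase of methionine synthesis (-1.53), and Rab39, a small GTPase (-1.53). Their edgeR adjusted p-values ran from 0.150 to 0.274. The difference was smallest in Mut-1 for 9 of these 12 genes and in WT-1 for 3; that of Nos2, for example, was -0.49 in Mut-1 and -4.14 in Mut-2.

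Glycolysis and hypoxia genes were lower in replicate 3 on the whole list, unevenly by line. Of 32 tested, 28 were lower and 4 higher, with a median of -0.48, and 0 passed the paired test. At an unadjusted p under 0.05 there were 15 lower members and 0 higher, and the fit with 12 libraries called 4 lower (P4ha1, Bnip3, Slc16a3 and Hk1). By line the median was -0.43, -0.94, 0.04 and -0.78, so that Mut-1 did not share the direction. Bnip3, a mitophagy receptor and HIF target, had 53.4, 99.3, 54.7 and 61.9 CPM in replicate 1 and 40.6, 35.9, 41.4 and 26.8 CPM in replicate 3. All replicate 3 values were below all replicate 1 values, as for 4.78% of all tested genes. The log2 fold change was -0.85 (SE 0.20, edgeR adjusted p = 0.173, and 0.0421 with 12 libraries). Ndrg1, a strongly hypoxia-inducible gene, had the largest difference (-1.36, SE 0.38, edgeR adjusted p = 0.199), made of -1.11, -2.50, 0.12 and -1.89 in the 4 lines. Slc2a1, the main glucose transporter, differed by -0.78, -1.59, 0.29 and -0.93, and Ldha, lactate dehydrogenase, by -1.28, -0.97, 0.15 and 0.12. Among abundant enzymes of the pathway, Eno1 and Pkm were lower in the 2 wild-type lines (-0.64 and -0.50 for Eno1, -0.41 and -0.24 for Pkm) and higher in the 2 mutant lines (0.49 and 0.26, 0.42 and 0.28). Gapdh, whose many pseudogene copies make its counts uncertain, had a log2 fold change of 0.12.

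The promoter of Bnip3 is shown because the core of the hypoxia response element, ACGTG, is present on both strands of it in 1 palindrome, CACGTG, in capitals, beginning at -108 from the start (chr7:138909457-138909756, minus strand).
Bnip3: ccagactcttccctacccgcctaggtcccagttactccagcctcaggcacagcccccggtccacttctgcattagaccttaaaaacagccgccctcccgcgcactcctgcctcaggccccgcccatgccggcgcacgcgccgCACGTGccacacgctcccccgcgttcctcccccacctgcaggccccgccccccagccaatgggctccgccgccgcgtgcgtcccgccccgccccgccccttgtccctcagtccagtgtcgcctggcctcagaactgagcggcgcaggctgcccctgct
ACGTG was present on either strand in 21 of 29 windows of this list (72.4%), against 28.7% of tested genes and 19.6% of all windows. The same 5 letters were in 47.8% of the amino acid response windows and in 25% of the sterol windows. They were also in 44.4% of the FGF and ERK feedback windows and in 33.3% of the immediate early windows. The glycolysis and hypoxia list was chosen for its known regulation, so its share does not bear on the replicate difference.

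Sterol synthesis genes were lower in the paired fit for all 25 members, and the lines disagreed. The median was -0.51 over the 25, with 0 passing and 7 lower members at an unadjusted p under 0.05. By line it was -1.34, -0.83, -0.16 and 0.34, with the large differences in the wild-type lines. Stard4, a cholesterol carrier, was the only one that the fit with 12 libraries called: it had 35.1, 43.5, 18.1 and 27.5 CPM in replicate 1 and 11, 13.3, 10.8 and 16.6 CPM in replicate 3 (log2 fold change -1.20, SE 0.22, edgeR adjusted p = 0.149; 0.0421 with 12 libraries). Insig1, the sterol sensor that retains SREBP in the endoplasmic reticulum, had 176 and 199 CPM in replicate 1 of WT-1 and WT-2 and 43.8 and 58.4 in replicate 3. In Mut-1 it had 44.3 and 40.8 CPM, and in Mut-2 the order was turned, with 91.3 CPM in replicate 1 and 131 in replicate 3. Msmo1, a demethylating oxidase of cholesterol synthesis, followed Insig1 with 145 and 47.4 CPM in WT-1, 153 and 57.9 in WT-2, 39.9 and 37.8 in Mut-1 and 72.4 and 78.9 in Mut-2. Within replicate 1 the wild-type lines were thus above the mutant lines for both genes, and within replicate 3 Mut-2 was highest. The sterol regulatory element TCACNCCAC was in 1 of 16 promoter windows of this list (6.25%, Hmgcs1). Its share was 1.47% of tested genes and 1.24% of all windows.

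**Figure D3:**
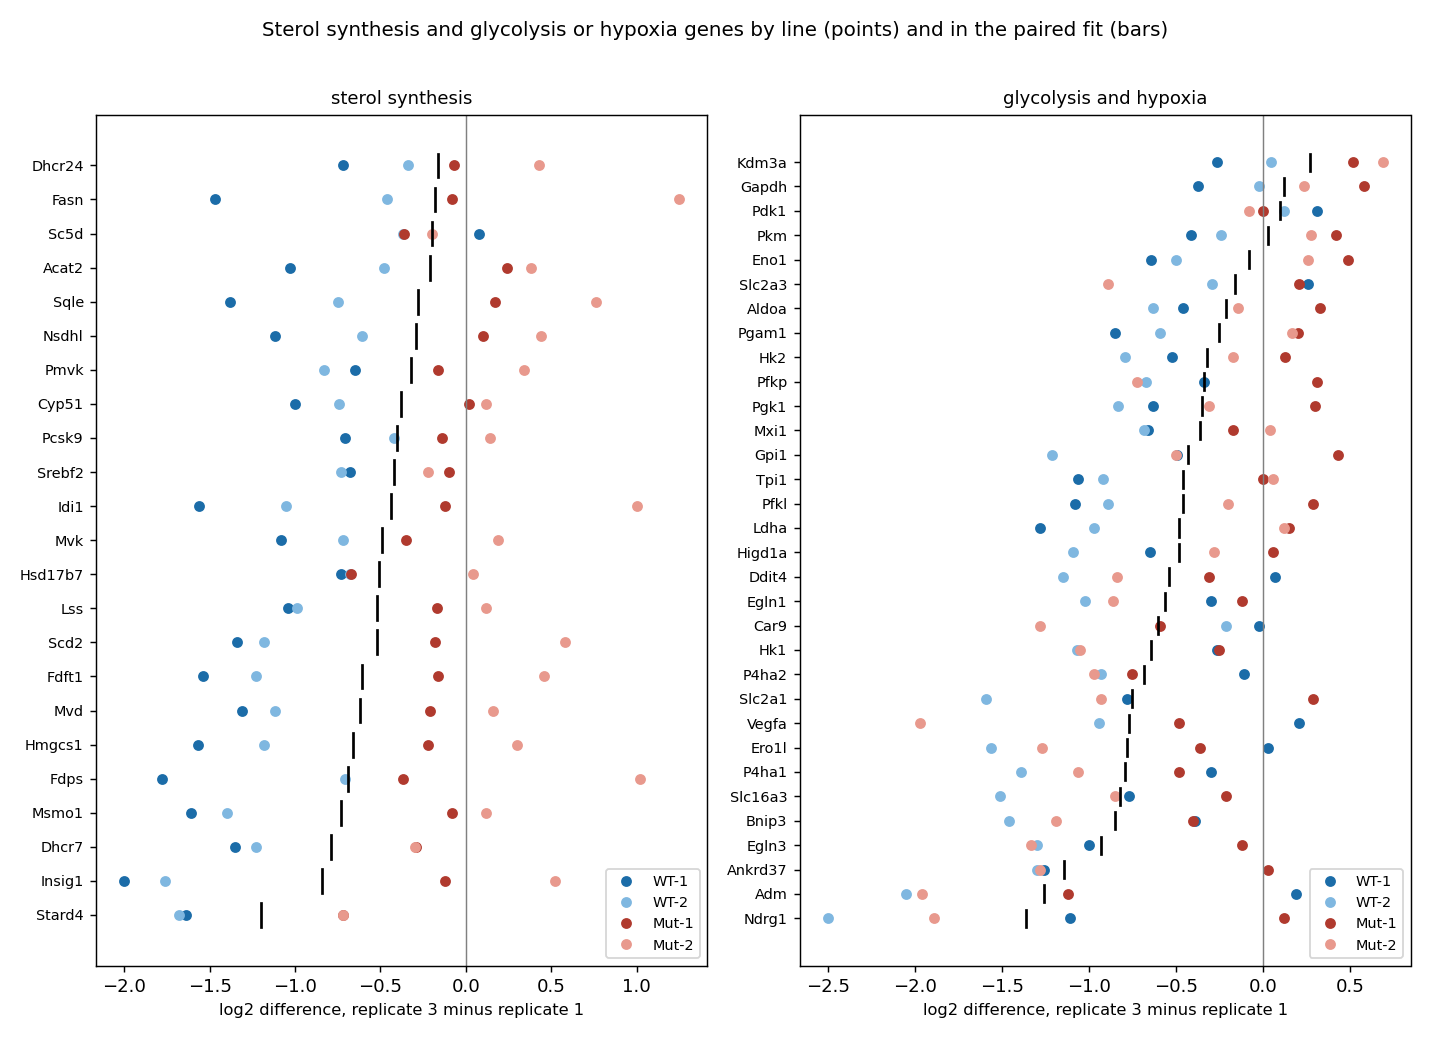
Rows are tested genes of sterol synthesis (left) and of glycolysis and hypoxia (right), points the log2 difference of replicate 3 minus replicate 1 in each line (x axis), and black bars the paired fit. For Insig1 the points run from -2.0 in WT-1 to 0.52 in Mut-2, and for most glycolysis genes Mut-1 lies near or above 0.

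Whether the difference depended on genotype was tested directly. The contrast of the mutant lines' difference with the wild-type lines' difference called 0 of 15789 genes (0%) at an adjusted p under 0.05 with edgeR, and 2214 (14%) had an unadjusted p under 0.05. That fit has 2 residual degrees of freedom among lines. DESeq2 called 107. Of the 25 sterol genes, 22 were among those of unadjusted p under 0.05, as were 14 of 32 glycolysis and hypoxia genes, 16 of 27 amino acid response genes and 22 of 39 DNA replication genes. So were 20 of the 34 feeder fibroblast markers, whose median by line was 0.39, -0.17, -1.21 and -0.25, and the part of feeder RNA in the genotype contrast was not tested. The 5 genes with the smallest p all had an edgeR adjusted p of 0.315. Insig1 differed by -2.0, -1.76, -0.12 and 0.52, and Msmo1 by -1.61, -1.40, -0.08 and 0.12. Tfrc, the transferrin receptor, had 525 and 672 CPM in replicate 1 of the wild-type lines and 234 and 372 in replicate 3, whereas in Mut-1 and Mut-2 it had 211 and 373 CPM in replicate 1 and 286 and 539 in replicate 3. Osmr, the oncostatin M receptor, showed the opposite order, with differences of 1.52 and 0.95 in the wild-type lines and -1.12 and -0.86 in the mutant lines. Hnrnpab, an RNA-binding protein, had -0.24 and -0.80 against 1.56 and 0.90. Of the genes called in the paired test, Fosb, Atf3 and Dusp5 also had an unadjusted p under 0.05 here. Their edgeR adjusted p-values were 0.315, 0.315 and 0.335. The mean difference of the wild-type and the mutant lines was 6.77 and 4.4 for Fosb, 2.85 and 1.74 for Atf3, and 1.61 and 2.33 for Dusp5.

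Genes of the amino acid response were mostly higher in replicate 3, again with the wild-type lines ahead. Of 27 tested, 24 were higher and 3 lower (median 0.45), 14 higher and 1 lower at an unadjusted p under 0.05, and 0 passed. The median by line was 0.91, 0.82, 0.22 and -0.19. Atf4, the factor that governs the response, had 355, 276, 471 and 343 CPM in replicate 1 and 559, 643 and 519 CPM in replicate 3 of WT-1, WT-2 and Mut-1. It was higher in 4 of 4 lines, by 0.65, 1.22, 0.14 and 0.19 (log2 fold change 0.56, SE 0.19, edgeR adjusted p = 0.234). Slc7a3, a transporter of cationic amino acids, had the smallest p of the list, with 139, 49.3, 90.9 and 64.3 CPM against 184, 181, 181 and 168 (log2 fold change 1.18, SE 0.23, edgeR adjusted p = 0.150; 0.0421 with 12 libraries). Trib3 and Chac1, which respond strongly to amino acid shortage, split by line: the log2 differences were 1.77, 2.64, 0.22 and -1.06 for Trib3 and 1.25, 2.53, -0.67 and -2.38 for Chac1. The amino acid response element TGATGNAA was in 8 of 23 promoter windows of this list (34.8%), against 2.84% of tested genes and 3.97% of all windows. The list holds known ATF4 targets, so this share does not bear on the replicate difference. The 8 genes with the element had log2 fold changes from -0.02 for Vldlr to 1.51 for Slc7a11.

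Naive pluripotency factors were mostly higher in replicate 3, with WT-1 apart, and the core factors had differences of both signs that nearly cancelled in the mean. Among 24 core and naive pluripotency genes 19 were higher, 9 of them and 1 lower gene at an unadjusted p under 0.05, with a median of 0.24, and 0 passed the paired test. By line the median was -0.13, 0.3, 0.35 and 0.17. Klf2, a naive pluripotency factor, had 215, 160, 176 and 155 CPM in replicate 1 and 330, 332, 476 and 375 CPM in replicate 3. Its log2 fold change was 1.11 (SE 0.16, edgeR adjusted p = 0.0601, and 0.0359 with 12 libraries). The numbers did not overlap, as for 4.37% of all tested genes in this direction. Klf4 had 421, 223, 546 and 417 CPM against 655, 548, 753 and 504 (log2 fold change 0.68, SE 0.17, edgeR adjusted p = 0.178), and Nr0b1 differed by 0.05, 1.49, 1.0 and 0.89. Pou5f1, Sox2 and Nanog, the core factors, had log2 fold changes of 0.02 (SE 0.19), 0.12 (SE 0.12) and 0.07 (SE 0.16). Within lines Pou5f1 differed by -0.65, -0.03, 0.33 and 0.34, Sox2 by -0.14, 0.22, 0.16 and 0.18, and Nanog by -0.4, 0.29, 0.31 and 0.02, so each was lower in replicate 3 of WT-1. Of 15 tested formative and primed pluripotency genes, 11 were higher and 4 lower (median 0.37), and 1 passed (Dusp6). By line that list's median was -0.14, 0.44, 0.18 and 0.88. Among its lower genes was Otx2, an early marker of exit from the naive state, which was lower in 3 lines. It had 8.81, 8.43 and 14.4 CPM in replicate 1 of WT-1, WT-2 and Mut-2 and 2.68, 2.05 and 2.21 in replicate 3, but 8.35 and 9.48 in Mut-1 (edgeR adjusted p = 0.205).

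Of 17 tested genes of Nodal and BMP signalling, 13 were higher and 4 lower (median 0.44), 9 higher and 2 lower at an unadjusted p under 0.05, and 0 passed. Lefty1, a Nodal antagonist and target, had 19.1, 22.7, 34.0 and 35.2 CPM in replicate 1 and 26.9, 85.7, 66.7 and 114 CPM in replicate 3 (log2 fold change 1.29, SE 0.24, edgeR adjusted p = 0.149; 0.0464 with 12 libraries). Lefty2 differed by 0.94, 1.62, 0.29 and 1.64 (edgeR adjusted p = 0.155), and Id4, a target of BMP signals, by 0.99, 1.01, 0.39 and 0.88 (0.0393 with 12 libraries). Smad6 and Skil, inhibitors of the same pathways, were lower in 4 of 4 lines, by -0.66 and -0.45 in the fit. The median was above 0 in each line, at 0.38, 0.29, 0.31 and 0.52. Without Mut-2 the list's median was 0.34.

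Groups of abundant transcripts differed by small amounts, least or in the other direction in WT-1. All 14 transcripts of the mitochondrial genome had a fold change of 0 or above in replicate 3 (median 0.35), 10 of them at an unadjusted p under 0.05 and 12 with the same sign in 4 of 4 lines, and 0 passed. The median by line was 0.09, 0.56, 0.33 and 0.39. mt-Nd1, a subunit of complex I, had 4040, 1860, 2810 and 2980 CPM in replicate 1 and 4110, 3830, 4620 and 5700 CPM in replicate 3 (log2 fold change 0.70, SE 0.19, edgeR adjusted p = 0.197). mt-Co1, the most abundant, ranged from 15400 to 17900 CPM and from 17000 to 19100 CPM, a log2 fold change of 0.13. All 47 cytosolic ribosomal protein genes were higher (median 0.21), 32 of them in 4 of 4 lines and 5 at an unadjusted p under 0.05, and their pseudogene copies make single counts uncertain. Their median by line was 0.06, 0.07, 0.45 and 0.2. Nuclear genes of oxidative phosphorylation were higher for 27 of 32 (median 0.16; -0.05, 0.01, 0.4 and 0.2 by line). Ribosome biogenesis genes were higher for 26 of 29 (median 0.24), but lower in WT-1, with medians of -0.22, 0.15, 0.26 and 0.64. Gene properties differed with the replicate number too. In 5 bins of transcript GC content, the median log2 fold change of tested genes went from 0.081 in the bin of lowest GC to -0.114 in the bin of highest. In each line the lowest bin (0.127, 0.138, -0.008 and 0.001) lay above the highest (-0.054, -0.225, -0.076 and -0.087). In 5 bins of exon length the shortest had 0.069 and the longest 0.008, and here the lines ran opposite ways. The shortest bin had -0.034, -0.013, 0.164 and 0.065 and the longest 0.127, 0.055, -0.099 and -0.067, so that long genes were the higher ones in the wild-type lines and short genes in the mutant lines. The part of GC content and length in these shifts was not tested.

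The feeder share differed within lines, but the sign was not the same in every line, and no difference shared by the lines was established. The share of counts on the 35 feeder fibroblast markers in the table was 1.04%, 1.27%, 2.23% and 1.95% in replicate 1 and 1.29%, 0.95%, 1.06% and 1.24% in replicate 3. The mean difference was -0.488 percentage points ± 0.601 (SD, n = 4), lower in 3 of 4 lines (exact two-sided sign-flip permutation test, p = 0.25, where 0.125 is the smallest p that 4 pairs allow). In bulk RNA, fewer fibroblasts and less RNA per fibroblast cannot be told apart. By gene, 30 of the 34 tested markers were lower in the paired fit (median -0.25), 5 of them at an unadjusted p under 0.05, and 0 passed. The list's median was 0.39 in WT-1 and -1.21 in Mut-1. Col1a1, the main collagen chain of fibroblasts, had 910, 1420, 1880 and 1820 CPM in replicate 1 and 986, 713, 806 and 1340 CPM in replicate 3. The 11 defining markers summed to 1830 to 4360 CPM and 1700 to 2820 CPM. When feeder share entered the paired fit as a covariate, it called 20 higher and 2 lower genes, 11 of the 12 above among them.

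**Figure D4:**
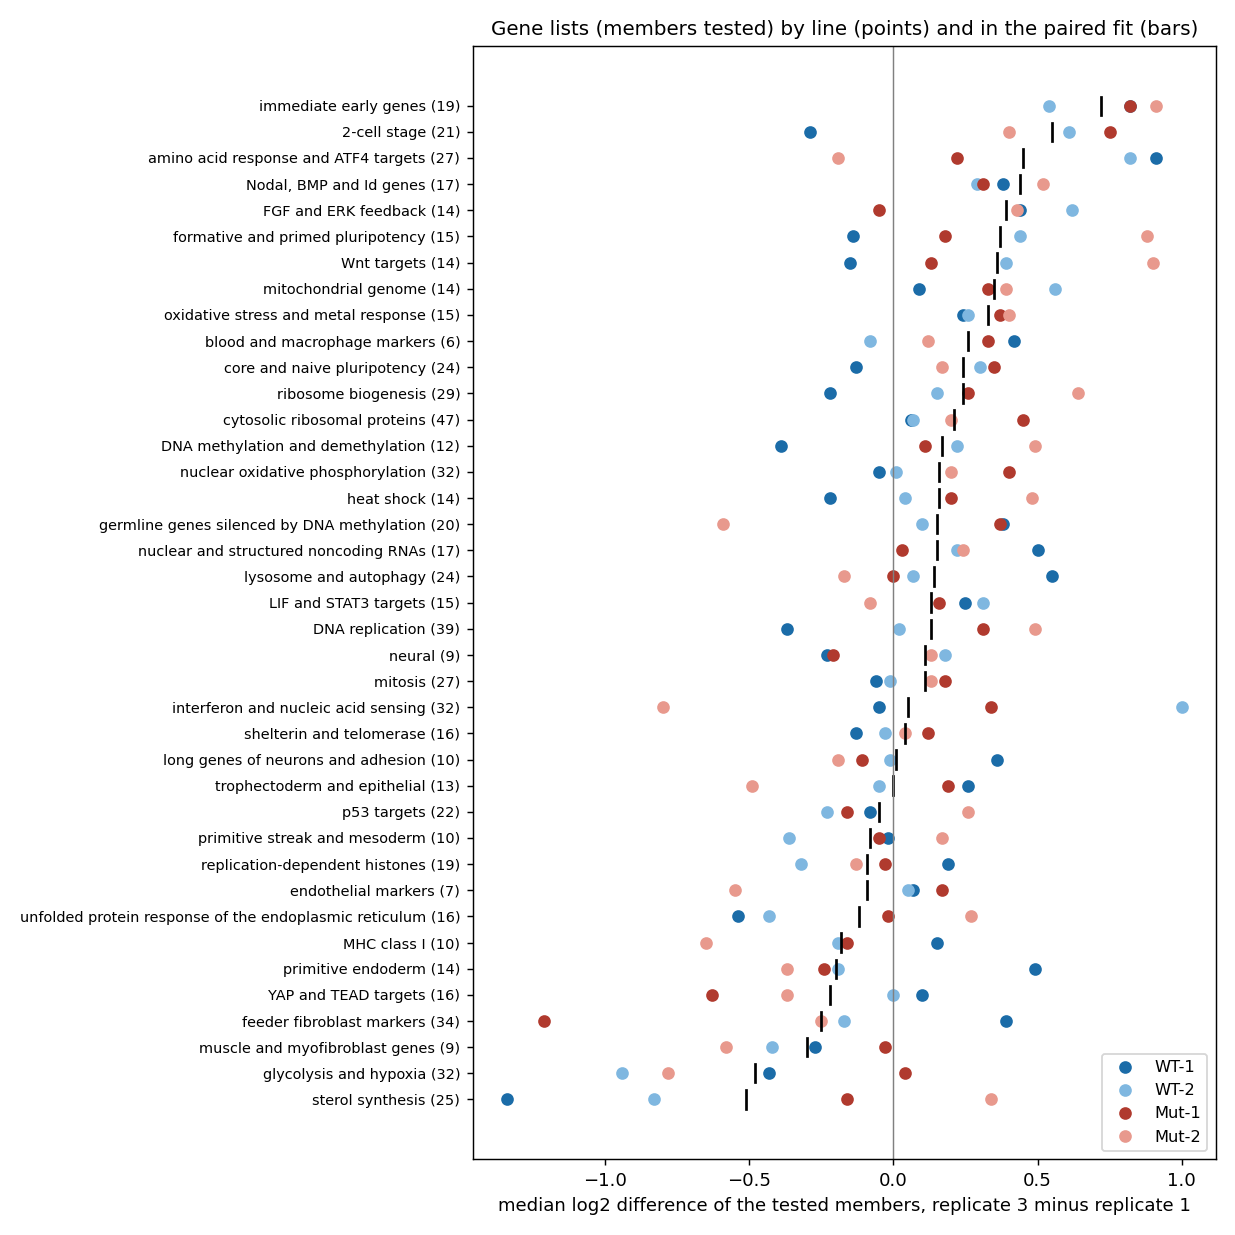
Rows are the gene lists with the number of tested members in brackets, and the x axis gives the median log2 difference of replicate 3 minus replicate 1. Points are the 4 lines and black bars the paired fit, from 0.72 for immediate early genes to -0.51 for sterol synthesis, whose lines are spread from -1.34 to 0.34.

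How much the lines shared can be described over the 11438 genes of at least 5 CPM. The median absolute log2 difference between replicate 3 and replicate 1 was 0.261, 0.237, 0.234 and 0.295, and between 3.02% and 4.86% of these genes differed by more than 2-fold. Across genes, the differences of 2 lines correlated at a Pearson's r of 0.43 for WT-1 with WT-2, 0.35 for WT-2 with Mut-1, 0.45 for WT-2 with Mut-2 and 0.47 for Mut-1 with Mut-2. WT-1 did not follow the mutant lines, with -0.03 for Mut-1 and -0.21 for Mut-2. Genes are not independent replicates, and each value compares 2 pairs of libraries that share no library. In the same genes replicate 2 differed from replicate 1 by a median of 0.0612 in WT-1 and by 0.208 to 0.248 in the other lines, and from replicate 3 by 0.150 to 0.261. The chi-square of the counts per degree of freedom was 33.5 to 42.5 for replicates 3 and 1 of a line. It was 1.66 for replicates 2 and 1 of WT-1, still above the value of pure counting noise.

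**Figure D5:**
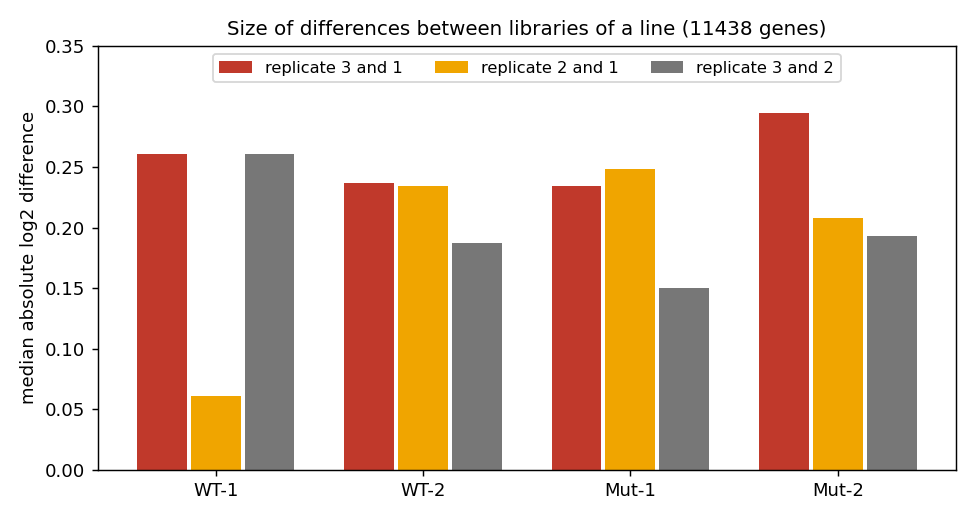
Bars give the median absolute log2 difference over 11438 genes (y axis, from 0) for each pair of libraries within a line (x axis), with replicates 3 and 1 in red, 2 and 1 in yellow and 3 and 2 in grey. In WT-1 the yellow bar is 0.0612 and the other bars are 0.261 each.

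The paired test on the other numbers gave fewer calls at an adjusted p under 0.05. At an unadjusted p under 0.05, replicate 2 against replicate 1 had more genes than the 1185 higher and 1188 lower of replicate 3 against replicate 1. Replicate 2 against replicate 1 called 1 of 15803 genes (0.00633%), Fosb, with a log2 fold change of 5.62, and 1922 higher and 1585 lower genes had an unadjusted p under 0.05. Replicate 3 against replicate 2 called 0 of 15682 (0%) with edgeR, and 803 higher and 734 lower genes had an unadjusted p under 0.05. These comparisons share libraries with replicate 3 against replicate 1, so their counts are given side by side only. For Dusp1, replicate 2 had 70.2 CPM in WT-1 and 260, 291 and 270 in WT-2, Mut-1 and Mut-2, and for Tppp3 it had 6.32 CPM in WT-1 and 18.7, 25.7 and 20.8 in the others. In WT-1 replicate 2 was with replicate 1 for these genes, and in the other 3 lines it lay between replicate 1 and replicate 3 or level with replicate 3.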

How the data were processed

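RNA-seq libraries of 4 mouse embryonic stem cell lines were compared by replicate number. The authors deposited read counts per gene, whole numbers that were not normalized, in 1 column per library (per the file headers and the values). Tools in the submitters' processing notes are HISAT2 2.1.0, Bowtie2 2.2.3, HTSeq 0.6.0 and bcl2fastq, with the build GRCm38. What each did, the annotation used and whether counting used strand is not given in the sources used here. Reads of a gene and its antisense partner therefore cannot be told apart, and counts of near-identical copies are uncertain. Of 31641 symbols, 29383 matched GENCODE M21 by name, 48 had several loci and 2210 were not matched. The labels also mention transposable elements, which are not analysed here.

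The test was edgeR 4.0.16 (quasi-likelihood, TMM, filterByExpr, Benjamini-Hochberg over all tested genes, threshold 0.05) in R 4.3.3 on the 8 libraries of replicates 1 and 3, with the line as a term and 3 residual degrees of freedom. The pairs come from the line, since both libraries of a pair are the same cell line. A second fit gave each genotype its own replicate term. Differences by line are on the scale log2(CPM + 0.5), which understates the change of low genes. Named genes are, in each direction, the 12 of largest fold change that passed the threshold, the same sign in 4 of 4 lines and a mean CPM of 2 or more, filled from genes of unadjusted p under 0.05, and up to 4 per list; predicted genes are left out. Library totals of 14766477 to 17891894 counts limit the precision of genes below about 1 CPM. Alternatives were RLE size factors, no filter, DESeq2 1.42.0, limma-voom (limma 3.58.1), all 12 libraries, no line term, the feeder share as a covariate, a 1.5-fold minimum, and leaving out each line. Fits on the wild-type or the mutant lines alone were added after the data were seen. The tests were run on simulated data first. The libraries compared and the 39 gene lists, of 837 symbols with 14 not in the table, were chosen with earlier results of these data known. Promoter and miRNA sequences are RefSeq's on GRCm38.p6, and of tested genes 11175 had a promoter window. No column of another sample was in the table. Some single genes of the lists are not reported here.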

Additional observations from a re-analysis of the deposited data

Results flagged for a closer look

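The 7 tested endothelial markers had a median log2 difference of -0.55 in Mut-2, far from 0.07 in WT-1, 0.05 in WT-2 and 0.17 in Mut-1. Chance gives such a gap in about 1 of 20 groups of 4 values, and many lists were examined. Among them, Pecam1, which stem cells express too, had in Mut-2 155 CPM in replicate 1 and 72.2 in replicate 3, while the endothelial gene Cdh5 was at 0.434 CPM or less in every library.

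In some lists and genes the differences of both wild-type lines had the opposite sign to those of both mutant lines, though some were very small. Over 27 mitosis genes the medians by line were -0.06, -0.01, 0.18 and 0.13, and the mutant lines exceeded the wild-type lines by 0.19 on the log2 scale. Over 16 shelterin and telomerase genes they were -0.13, -0.03, 0.12 and 0.04, a gap of 0.16. For both lists the difference was not tested. Tfrc was higher by 1.49 and Hnrnpab by 1.75 in the mutant lines' difference than in the wild-type lines', and Osmr was at -2.23. For these 3 genes edgeR's test of the difference gave an adjusted p of 0.315.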

How the results depend on the processing

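The number of genes called depended strongly on the setting. Higher genes were 381 without a filter, 232 with DESeq2, 160 with all 12 libraries, 20 with the feeder share as a covariate, and 0 to 98 when a line was left out; lower genes were 386, 175, 94, 2 and 0 to 49 in the same order, and 1 with limma-voom, which called 18 higher genes. Leaving the line out of the paired model (no replicate block) gave 22 higher and 1 lower. In fits added after the data were seen, the wild-type lines alone gave 196 and 137 and the mutant lines alone 92 and 28. With RLE size factors the 12 calls stayed at 12, all of them shared. All 12 genes were also called without a filter, with DESeq2, limma-voom and 12 libraries, and without WT-1. The test of genotype dependence called 737 genes without a filter and 107 with DESeq2, and 28 without Mut-1 and 44 without Mut-2, against 0 without either wild-type line. The feeder share difference ranged from -0.733 to -0.26 percentage points when a line was left out.

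Genes that changed sign were not called in the paired fit. When a line was left out, the log2 fold change ranged from -0.22 to 0 for Plvap, from -0.33 to 0.20 for Vwf, from -0.20 to 0.03 for Tie1, from -0.79 to 0.10 for Cdh13, from -0.36 to 0.57 for Osmr, from -0.53 to 0.06 for Tfrc and from -0.04 to 0.76 for Hnrnpab. With no replicate block Osmr was at -0.11. With the feeder share as a covariate, Col4a2 was at 0.01, Hspe1 at -0.03, H2-D1 at 0.06, Cdh13 at 0.48 and Hnrnpab at -0.35. With the wild-type lines alone, Vwf was at 0.02, Znrf3 at -0.01, Hspe1 at -0.05, H2-D1 at 0.08, Cdh13 at 0.36 and Hnrnpab at -0.53. With the mutant lines alone, Pdia4 was at 0.05, Hsp90b1 at 0.06, Aurkb at 0.11, Osmr at -0.96, Insig1 at 0.25, Msmo1 at 0.07 and Tfrc at 0.53. The cause of these changes was not tested. With 4 pairs and 1 library in each, the spread of a line's difference cannot be measured within that line.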

Other observations

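Several genes of other lists passed in the fit of 12 libraries and not in the paired one. Rpph1, the RNA component of ribonuclease P, was higher by 1.15, 2.04, 1.44 and 0.72 in the 4 lines, in the order used above (log2 fold change 1.62, SE 0.31, edgeR adjusted p = 0.150; 0.0403 with 12 libraries). Dnajb9, a chaperone induced by stress of the endoplasmic reticulum, had a log2 fold change of 0.91 (SE 0.18, adjusted p = 0.0403 with 12 libraries in edgeR), while the list it belongs to had a median of -0.12 over 16 genes. The neurofilament genes Nefl and Nefm were higher in 4 of 4 lines, at 0.81 (SE 0.17) and 1.02 (SE 0.25), with edgeR adjusted p-values of 0.0339 and 0.0422 in that fit. Their neural list was split, with 5 higher and 4 lower of 9 tested genes (median 0.11), and Nes was lower in 4 of 4 lines (-0.33). Gclc, the rate-limiting enzyme of glutathione synthesis, had a log2 fold change of 0.48 (SE 0.13; 0.0435 with 12 libraries in edgeR), and of the 15 tested genes of oxidative stress and metal response 14 were higher (median 0.33). The exception was Txnip, an inhibitor of thioredoxin and of glucose uptake, with -0.90 (SE 0.38, edgeR adjusted p = 0.319).

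Genes of the 2-cell stage were higher for 18 of 21 (median 0.55), with a median of -0.29 in WT-1 and 0.61, 0.75 and 0.40 in WT-2, Mut-1 and Mut-2. Levels were low, from 0.242 to 1.4 CPM for Tcstv3 and from 1.33 to 12 CPM for Zscan4a in replicates 1 and 3. Many of these genes have near-identical copies that make single counts uncertain. Genes of interferon and nucleic acid sensing had medians of -0.05, 1.0, 0.34 and -0.80 by line, which nearly cancelled in the paired fit (0.05). DNA replication genes were higher for 33 of 39 with a median of 0.13, made of -0.37, 0.02, 0.31 and 0.49. Of the 16 tested genes of shelterin and telomerase, 9 were higher and 7 lower (median 0.04), and Tert, the catalytic subunit of telomerase, was lower by -0.09, -0.90, -0.65 and -0.96 (log2 fold change -0.65, SE 0.17, edgeR adjusted p = 0.192).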
